A study of Mus musculus with 12 samples.

Results

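The response of control 4T1 cells to TGFβ1 was described from 6 of the 12 libraries of the series. 4T1 is a mouse mammary carcinoma line that the labels class as triple negative breast cancer. The members were chosen by title and genotype: 3 libraries of untreated control cells and 3 libraries of control cells kept for 4 days in 5 ng/ml TGFβ1. The untreated titles carry the label 0h, whereas the treatment protocol has cells seeded with or without TGFβ1 over the same 4 days, so the time at which untreated cells were collected is not settled by the labels. Library names give the control cells as sgCt, and both groups carry the genotype label control. How that control line was made, and whether it is 1 clone, is not stated by the labels. The other 6 libraries, from PBRM1 KO cells with and without TGFβ1, shared the estimate of spread and gave 1 comparison at the end.

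TGFβ1 is a secreted cytokine that binds the type II receptor TGFBR2, which activates the type I receptor TGFBR1. The receptors phosphorylate SMAD2 and SMAD3, which join SMAD4 and act on genes together with partners such as AP-1 and RUNX factors. Among the direct targets are inhibitors of the pathway itself. In epithelial and carcinoma cells TGFβ is known for slowing proliferation, for matrix production and for driving parts of the epithelial-mesenchymal transition (EMT), in which cell junctions are dissolved and motility is gained.

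The library of TGFβ1 replicate 3 stood apart from the other treated libraries, which has to be known before any result. On the first principal component, which held 59.7% of the variance, it lay at 0.516, whereas TGFβ1 replicates 1 and 2 lay at 43.4 and 45.9 and the untreated libraries between −33.0 and −24.1. Each library was also regressed on the response of PBRM1 KO cells, taken as their TGFβ1 replicates 1 and 2 against their untreated mean. The slope of TGFβ1 replicate 3 of control cells was 0.324. It was 0.804 and 0.843 for TGFβ1 replicates 1 and 2 and −0.0459 to 0.0887 for the untreated libraries. TGFβ1 replicate 3 of PBRM1 KO cells was left out of that reference, and its own position is not given here. Total counts were 9265693 to 11061848 per library, and 10567737 in TGFβ1 replicate 3. Mitochondrial transcripts took 5.65% to 6.46% of counts over the 6 libraries. Leukocyte and endothelial markers were low: 14 leukocyte markers summed to 1.97 to 2.35 CPM (counts per 1000000 counts of the library) untreated and 2.37 to 3.26 CPM treated, with Cd3d, Cd8a, Itgam and Klrb1c at 0 in all 6 libraries. The 8 endothelial markers summed to 0.645 to 2.11 CPM untreated and 1.30 to 2.53 CPM treated. The 12 fibroblast and pericyte markers were higher, at 36.3 to 50.9 CPM untreated and 34.8 to 111 CPM treated. The 12 epithelial carcinoma markers summed to 4028 to 4237 CPM untreated and 3349 to 3709 CPM treated, and Epcam, Cdh1, Krt8 and Krt18 were abundant in every library. In bulk RNA, fewer cells of a kind and less RNA per cell cannot be told apart.

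**Figure D1:**
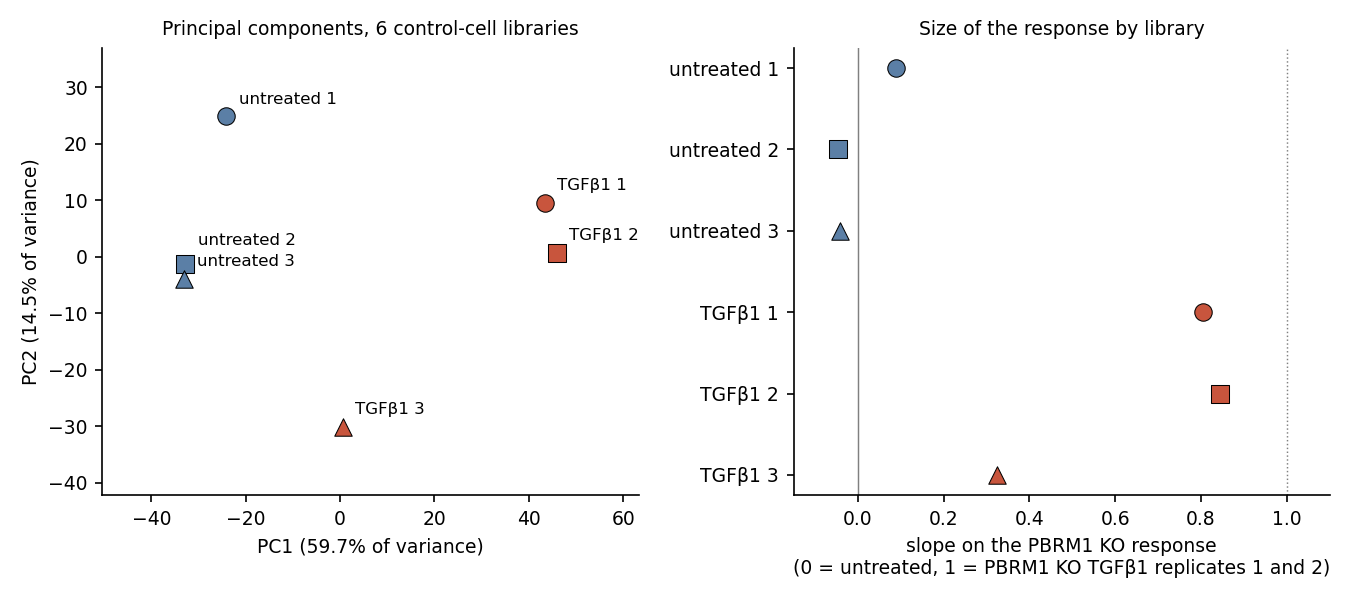
Principal components of the 6 control-cell libraries (left, unitless scores) and the slope of each library on a reference response (right, unitless). Circles, squares and triangles are replicates 1, 2 and 3. The reference is TGFβ1 replicates 1 and 2 of PBRM1 KO cells against the untreated mean of those cells. TGFβ1 replicate 3 sits at 0.516 on the first component and at a slope of 0.324, between the untreated libraries and the other treated ones.

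Of 14012 genes with enough counts to test, 826 rose with TGFβ1 (5.89%) and 408 fell (2.91%) at an adjusted p below 0.05, or 8.81% in all. Changes of 2-fold or more made up 342 of the rises (2.44% of tested genes) and 124 of the falls (0.885%). The median log2 change over all tested genes was 0.00. Treated and untreated libraries did not overlap in 1213 of the 1234 called genes. Over all 14012 tested genes the treated libraries lay above every untreated one in 1966 and below every untreated one in 1704. Lack of overlap was thus common among genes without a call as well. Leaving out TGFβ1 replicate 3 raised the counts to 1496 rises (10.4% of the genes then tested) and 904 falls (6.31%). Leaving out any other control-cell library lowered them, to 262 to 443 rises and 146 to 262 falls. TGFβ1 replicate 3 of PBRM1 KO cells also entered the estimate of spread. With both replicate 3 libraries left out there were 1988 rises and 1426 falls. Of the 1234 calls 1165 were made again without TGFβ1 replicate 3, and 351 of the 1234 calls were made in each of the 6 fits that left out 1 library. Among the called genes replicate 3 had a median of 0.589 of the change seen in the other 2 treated libraries among rising genes and 0.751 among falling genes. These calls were made with replicate 3 included, which favours genes that moved in it, so the shares describe the called genes only. Log2 changes below are treated minus untreated with their standard error after ±. Gene levels are CPM of 3′ end counts, listed in the order of replicates 1, 2 and 3, and by adjusted p is meant the Benjamini-Hochberg value over all genes tested.

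A set of 52 gene groups held 1250 genes, of which 933 were tested; the rest had too few counts. The groups with the highest share of rises were matricellular proteins, endoplasmic reticulum (ER) folding and export, integrins, Notch and the VEGF, PDGF and FGF families. Falls were most frequent among epithelial markers, glycolysis, caveolae and S100 proteins, tight junctions and intermediate filaments. Every group count below is to be read against the shares over all tested genes, 5.89% rises and 2.91% falls. Some groups lay near these shares, such as checkpoint and MHC genes, CDK inhibitors and cyclins, and redox genes, so that their counts describe single members. For each group described the counts with and without TGFβ1 replicate 3 and over the 6 fits that each left out 1 library are given below, always with rises before falls.

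**Figure D2:**
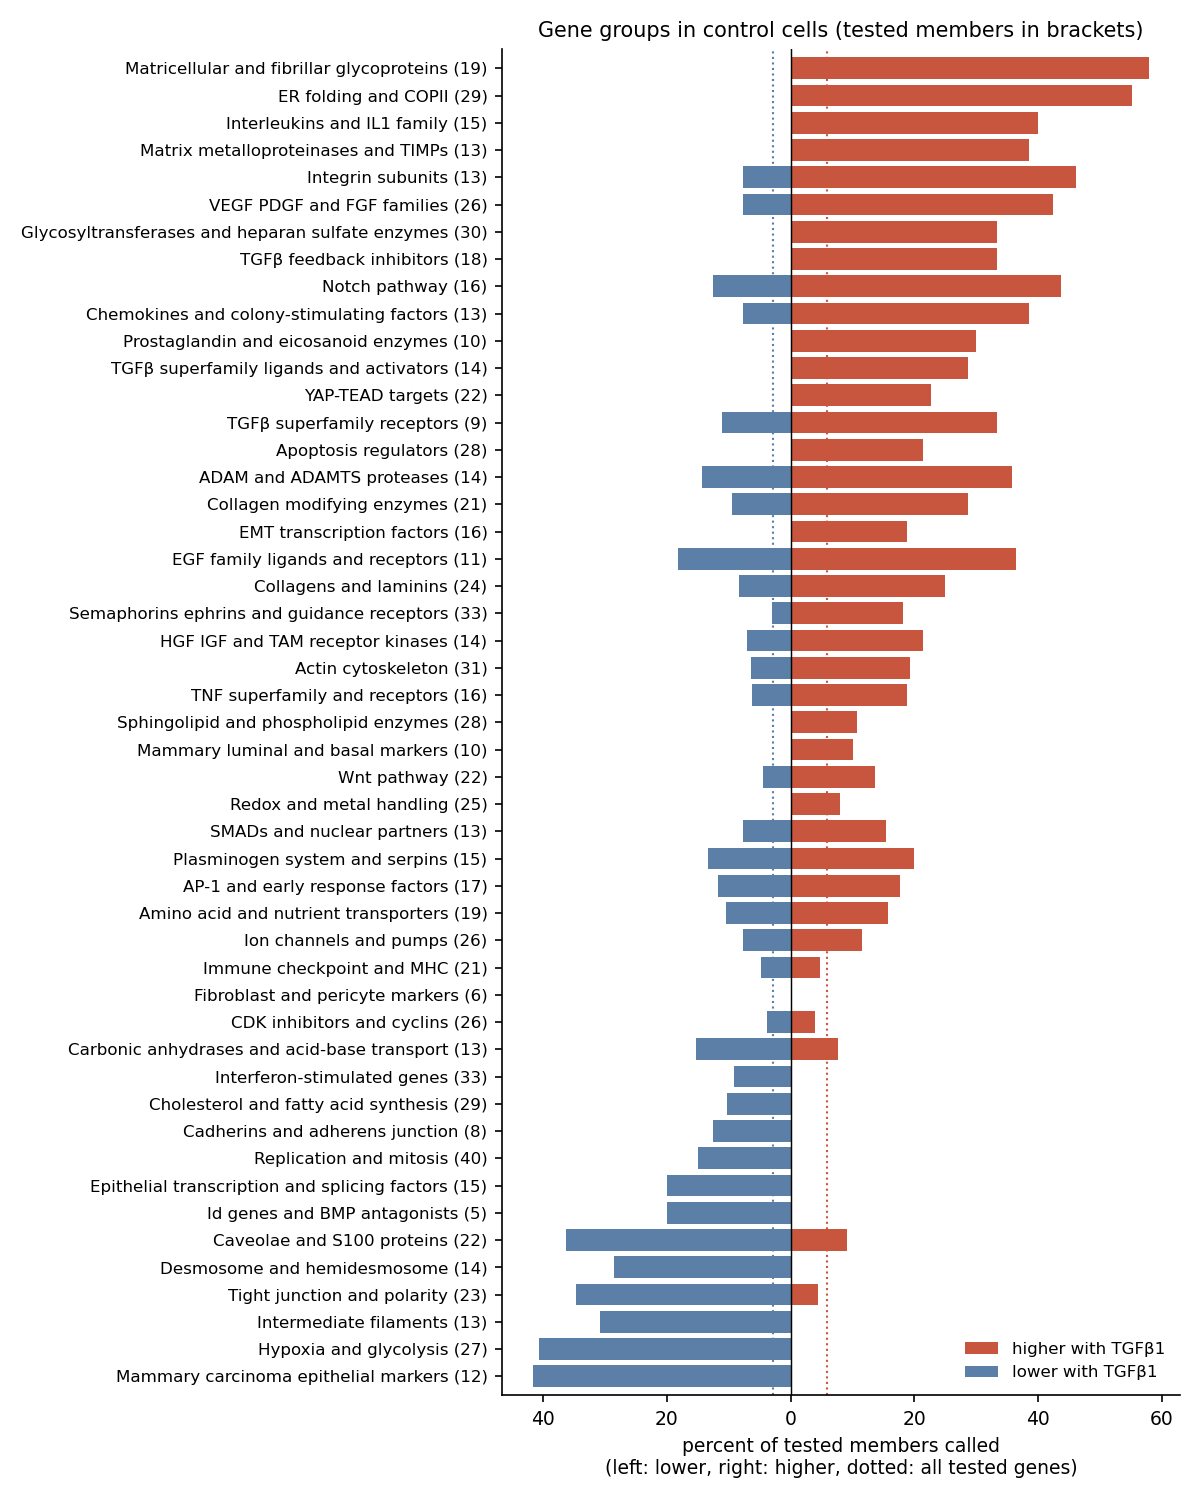
Percent of the tested members of the gene groups described that rose (red, to the right) or fell (blue, to the left) with TGFβ1 in control cells, with the number tested in brackets. Dotted lines mark the shares over all 14012 tested genes, 5.89% higher and 2.91% lower.

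Among ligands of the TGFβ superfamily and the proteins that release them, 4 of 14 tested members rose and 0 fell (14 of 21 listed genes were tested, median log2 change 0.54). Tgfb1 itself, which encodes the cytokine that was added, was at 17.8, 18.7 and 18.1 CPM without TGFβ1 and 27.6, 29.9 and 22.9 CPM with it (log2 change 0.55 ± 0.13, adjusted p = 0.017). Furin, the convertase that cleaves the TGFβ precursor, measured 119, 109 and 95.7 CPM untreated and 348, 373 and 159.6 CPM treated (log2 change 1.44 ± 0.32, adjusted p = 0.0167). Bmp1, a protease that processes procollagens and releases growth factors from matrix, and Thbs1, thrombospondin 1, an activator of latent TGFβ, rose by log2 0.91 ± 0.17 and 0.84 ± 0.18. In all 4 genes the 3 treated libraries lay above the 3 untreated ones, and replicate 3 was the lowest of the treated. Such a lack of overlap was the rule among called genes, at 1213 of 1234. Tgfb2 was at 22.5, 13.4 and 11.4 CPM untreated and 51.4, 52.8 and 11.2 CPM treated, so that replicates 1 and 2 were high and replicate 3 lay below all untreated libraries, and the change of 1.28 ± 0.52 (adjusted p = 0.147) did not pass. Tgfb3 had replicate 3 within the untreated range and a change of 0.54 ± 0.28 (adjusted p = 0.256). Without TGFβ1 replicate 3, Tgfb2 passed at log2 1.71 (adjusted p = 0.00972) and Tgfb3 at 0.80 (adjusted p = 0.0332). Of 4 called genes with values here, only Bmp1 was called in each fit that left out 1 library.

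Among the receptors 3 of 9 tested members rose and 1 fell, with the one fall at the signal-binding receptor of TGFβ itself. Tgfbr2 measured 112, 105 and 112 CPM without TGFβ1 and 52.2, 51.9 and 91.8 CPM with it (log2 change −0.75 ± 0.21, adjusted p = 0.045). Replicates 1 and 2 were alike, and replicate 3 was close to the untreated range without entering it. Tgfbr1, the type I partner, was at 44.8, 41.5 and 40.01 CPM untreated and 47.7, 53.3 and 52.99 CPM treated. It missed the threshold (log2 change 0.28 ± 0.09, adjusted p = 0.0559), and the lack of overlap between its groups is not a call. The rises were Acvr1 and Bmpr2, BMP type I and type II receptors, by log2 0.71 ± 0.18 and 0.88 ± 0.21, and Eng, the co-receptor endoglin, by 0.70 ± 0.17 (adjusted p = 0.0212). Tgfbr3, the co-receptor betaglycan, was not tested, with 0.379 to 1.27 CPM over the 6 libraries. None of the 4 calls given here was made in all 6 fits with 1 library left out.

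Among SMADs and their nuclear partners 2 of 13 tested members rose and 1 fell. The transducers themselves did not pass: Smad2 stood at −0.07 ± 0.13 (adjusted p = 0.795), Smad3 at 0.15 ± 0.12 (adjusted p = 0.484) and Smad4 at 0.16 ± 0.09 (adjusted p = 0.303), with overlapping groups. Smad1, a transducer of BMP signals, rose by 0.50 ± 0.12 (adjusted p = 0.0237). Runx1, a transcription factor that can bind SMADs, measured 102, 80.2 and 92.6 CPM untreated and 216, 213 and 118 CPM treated (log2 change 0.99 ± 0.22, adjusted p = 0.0172). Atf3, a stress-induced factor that partners SMAD3, fell by log2 0.78 ± 0.21 (adjusted p = 0.0402), a call not made without TGFβ1 replicate 3 (adjusted p = 0.0593). None of the 3 calls given here was made in all 6 fits with 1 library left out.

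Of the inhibitors that the pathway induces, 6 of 18 tested rose and 0 fell (median log2 change 0.36). Smad7, which blocks the type I receptor, was at 40.95, 33.3 and 39.9 CPM without TGFβ1 and 89.9, 92.5 and 50.4 CPM with it (log2 change 1.02 ± 0.22, adjusted p = 0.0143). Pmepa1, which sequesters SMAD2 and SMAD3, measured 269.9, 216 and 231 CPM untreated and 574, 534 and 296 CPM treated (log2 change 0.97 ± 0.24, adjusted p = 0.0238). Skil, the SMAD corepressor SnoN, was at 59.4, 45.3 and 45.01 CPM untreated and 126, 111 and 60.5 CPM treated (log2 change 0.99 ± 0.29, adjusted p = 0.0489), with replicate 3 only just above the highest untreated library. Fstl3, a secreted binder of activin, rose by log2 1.23 ± 0.23, Ldlrad4 by 0.90 ± 0.21 and the homeobox repressor Tgif1 by 0.39 ± 0.09. Smad6, the inhibitor of BMP signals, measured 2.35, 2.30 and 2.45 CPM untreated and 6.15, 5.43 and 2.18 CPM treated and did not pass with all libraries (log2 change 0.94 ± 0.32, adjusted p = 0.0881). Its adjusted p without TGFβ1 replicate 3 was 0.00237. Of 5 tested Id genes and BMP antagonists 0 rose and 1 fell. Id2, an inhibitor of basic helix-loop-helix factors, was at 37.02, 28.2 and 37.8 CPM untreated and 20.1, 19.4 and 20.9 CPM treated (log2 change −0.77 ± 0.19, adjusted p = 0.0269), while Id1 measured 27.3, 32.2 and 33.7 CPM untreated and 27.1, 33.6 and 24.2 CPM treated with overlapping groups (log2 change −0.14 ± 0.16, adjusted p = 0.627). Without TGFβ1 replicate 3 there were 9 and 0 rises and falls for ligands, 3 and 1 for receptors, 2 and 0 for SMADs, 11 and 0 for inhibitors and 0 and 1 for Id genes. With each library left out in turn the ranges were 1 to 9 rises and 0 falls for ligands, 0 to 3 and 0 to 1 for receptors, 0 to 3 and 0 for SMADs, 1 to 11 and 0 for inhibitors and 0 and 0 to 1 for Id genes. Of 7 called genes with values here, only Fstl3 was called in each fit that left out 1 library.

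**Figure D3:**
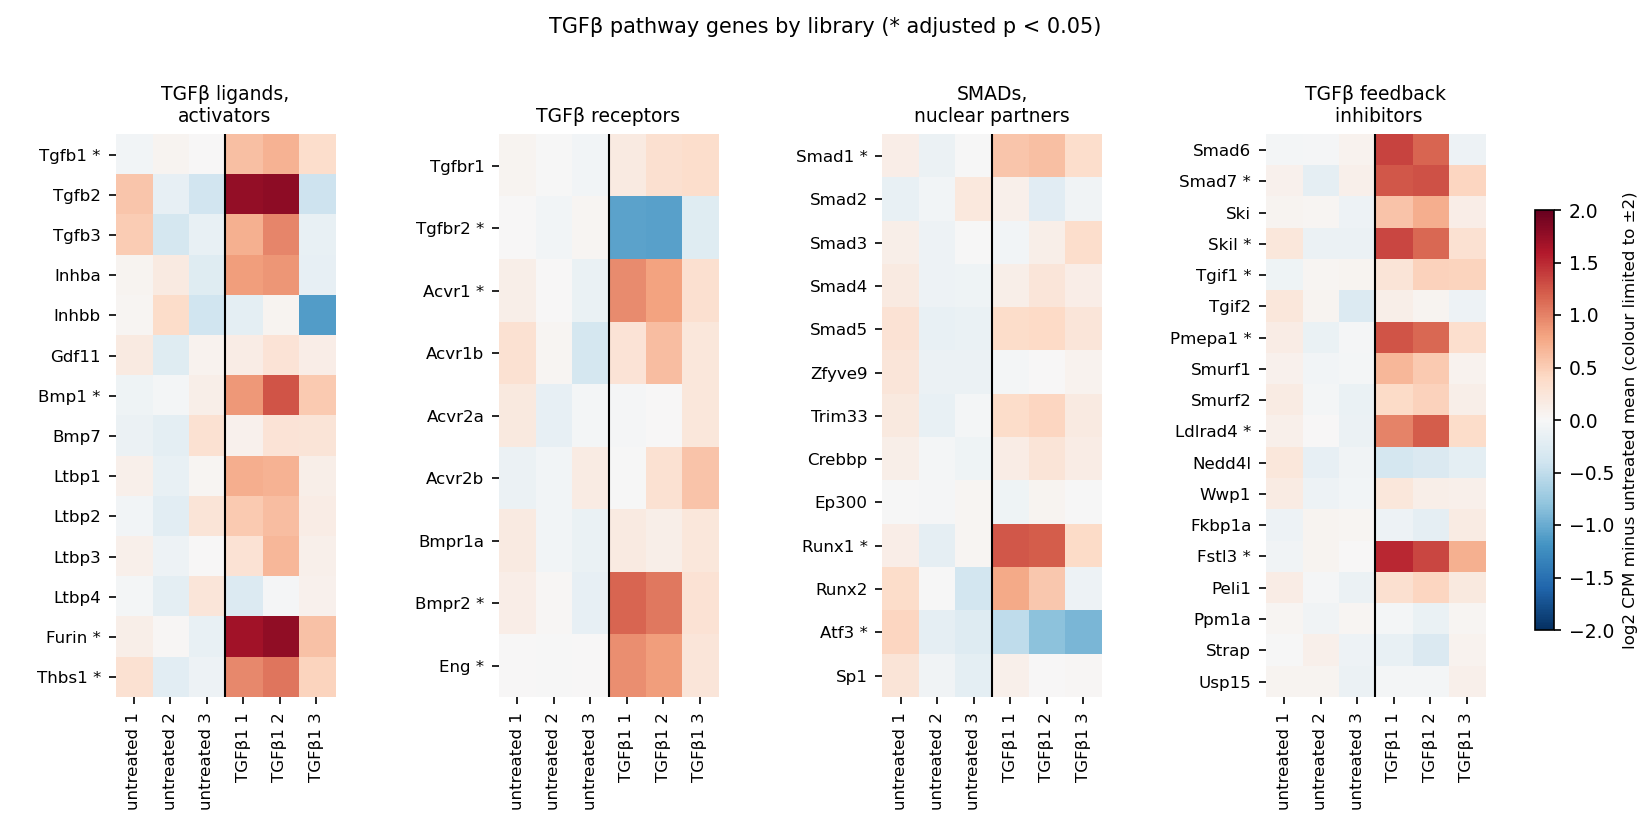
Log2 CPM of the tested TGFβ ligands, receptors, SMADs and feedback inhibitors in each of the 6 libraries, minus the mean of the untreated libraries (colour limited to ±2, a star marks an adjusted p below 0.05). Columns for TGFβ1 replicates 1 and 2 are the strongest in colour, with Tgfbr2 as the blue exception among starred receptors.

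The transcription factors of EMT changed in part: 3 of 16 tested members rose and 0 fell. Snai1, a repressor of E-cadherin, was at 19.2, 25.8 and 29.5 CPM without TGFβ1 and 45.2, 58.2 and 31.9 CPM with it (log2 change 0.86 ± 0.23, adjusted p = 0.0379). Zeb2, a repressor of the same kind, measured 25.8, 23.9 and 24.1 CPM untreated and 44.6, 39.9 and 46.8 CPM treated (log2 change 0.83 ± 0.09, adjusted p = 0.000287), and it was as high in replicate 3 as in the other treated libraries. Sox4, a high-mobility-group factor downstream of TGFβ, rose by 0.54 ± 0.14 (adjusted p = 0.0262). Snai2 was near the detection limit, at 0.0904, 1.20 and 1.17 CPM untreated and 0.216, 0.995 and 0.284 CPM treated, and gave no call (log2 change −0.64 ± 0.69, adjusted p = 0.614). Zeb1 was at 0.542, 0.829 and 1.17 CPM untreated and 1.40, 1.72 and 1.42 CPM treated, with no overlap but a change that did not pass (log2 change 0.85 ± 0.39, adjusted p = 0.201), and Twist1 overlapped at 0.08 ± 0.11 (adjusted p = 0.692). Of 3 called genes with values here, only Zeb2 was called in each fit that left out 1 library.

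Factors that keep the epithelial state fell where they passed the test, with 0 rises and 3 falls among 15 tested. Klf5 measured 194, 168 and 178 CPM untreated and 98.8, 93.5 and 145 CPM treated (log2 change −0.68 ± 0.17, adjusted p = 0.0298), and replicate 3 was again the treated library nearest to untreated. Elf3, an epithelial ETS factor, fell by 0.67 ± 0.13 (adjusted p = 0.00649) and Ovol1, a repressor of mesenchymal genes, by 1.22 ± 0.25 (adjusted p = 0.0102). Of AP-1 and early response factors 3 of 17 tested members rose and 2 fell. Junb, an AP-1 subunit, was at 316, 301 and 304 CPM untreated and 774, 802 and 371 CPM treated (log2 change 1.07 ± 0.27, adjusted p = 0.0286). Jund, another subunit, went the other way, at 1424, 1307 and 1341 CPM untreated and 927, 962 and 1113 CPM treated (log2 change −0.44 ± 0.09, adjusted p = 0.0083). Ier3, an early response gene, rose by log2 0.84 ± 0.20 and Maff, a small MAF factor, by 0.52 ± 0.12, and both were highest in replicate 3. Targets of YAP and TEAD, the growth-control factors held back by the Hippo pathway, gave 5 rises and 0 falls among 22 tested (median 0.38). Amotl2 measured 69.6, 76.03 and 71.2 CPM untreated and 181, 183 and 120.4 CPM treated (log2 change 1.16 ± 0.17, adjusted p = 0.00117) and Lats2, a Hippo kinase, rose by 0.58 ± 0.09. Leaving out TGFβ1 replicate 3 gave 3 and 1 rises and falls for EMT factors, 0 and 3 for epithelial factors, 3 and 2 for AP-1 factors and 9 and 1 for YAP targets. The fits that each left out 1 library gave 1 to 3 rises and 0 to 1 fall for EMT factors, 0 and 1 to 3 for epithelial factors, 0 to 3 and 1 to 2 for AP-1 factors and 5 to 9 and 0 to 1 for YAP targets. Among 9 calls given here, those of Elf3, Amotl2 and Lats2 were made in all 6 fits with 1 library left out.

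Called falls lay in several layers of the epithelial junctional complex, but the groups did not fall as a whole. The median log2 change was 0.23 for adherens junctions, −0.07 for tight junctions and −0.11 for desmosomes and hemidesmosomes. Changes above 0 were seen in 6 of 8, 10 of 23 and 5 of 14 tested members. Cdh1, E-cadherin of the adherens junction, was at 297, 227 and 230.1 CPM without TGFβ1 and 156, 168 and 124 CPM with it (log2 change −0.75 ± 0.12, adjusted p = 0.00222), and replicate 3 was the lowest library of all. With all libraries it was the only call among 8 tested cadherins and adherens junction genes. Cdh2, N-cadherin, was not tested, with 0.0473 to 0.266 CPM over the 6 libraries. Of the tight junction and polarity genes 1 rose and 8 fell among 23 tested. Rab25, a GTPase of epithelial recycling endosomes, measured 7.68, 8.29 and 7.34 CPM untreated and 2.48, 2.89 and 2.74 CPM treated (log2 change −1.52 ± 0.18, adjusted p = 0.000377). Crb3, an apical polarity protein, fell by 1.93 ± 0.25 (adjusted p = 0.000601), the claudin Cldn9 by 1.98 ± 0.25 (adjusted p = 0.000412) and Ocln, occludin, by 0.70 ± 0.14 (adjusted p = 0.00993). Tjp3, Cgn, Marveld2 and Marveld3 fell as well, and Lsr, angulin 1, rose by 0.29 ± 0.08 (adjusted p = 0.0364). Of 6 called genes with values here, Cdh1, Rab25, Crb3, Cldn9 and Ocln were called in each fit that left out 1 library.

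In desmosomes and hemidesmosomes 4 of 14 tested genes fell and 0 rose. Perp, a desmosomal membrane protein, was at 225, 197 and 215 CPM without TGFβ1 and 117, 107 and 106 CPM with it (log2 change −0.95 ± 0.09, adjusted p = 6.53e-05). Periplakin (Ppl) and envoplakin (Evpl), which tie keratins to the desmosome, fell by log2 1.71 ± 0.30 and 1.79 ± 0.33. Itga6, an integrin subunit of the hemidesmosome, measured 133, 128 and 129 CPM untreated and 51.3, 61.3 and 84.3 CPM treated (log2 change −0.98 ± 0.19, adjusted p = 0.00667). Among intermediate filaments 0 rose and 4 fell of 13 tested. Krt8 and Krt18, the paired keratins of simple epithelium, fell by log2 0.49 ± 0.07 and 0.39 ± 0.09, Lmna, lamin A/C, by 0.39 ± 0.07, and Krt19 was at 75.6, 54.6 and 60.3 CPM untreated and 35.3, 34.5 and 22.4 CPM treated (log2 change −1.05 ± 0.15, adjusted p = 0.00136). Vim, vimentin, the mesenchymal filament, was abundant before treatment and overlapped between groups, at 944, 1063 and 1002 CPM untreated and 968, 952 and 1223 CPM treated (log2 change 0.06 ± 0.14, adjusted p = 0.825). Epcam, an epithelial adhesion molecule, overlapped as well (log2 change 0.02 ± 0.15, adjusted p = 0.944). Of the 12 epithelial markers 5 fell and 0 rose, the falls being Cdh1, Krt8, Krt18, Krt19 and Elf3. The other 7 were not called, and 4 of the 12 had a log2 change above 0 (median of the 12 −0.16). Krt7, an abundant marker without a call, measured 605.7, 583.6 and 640 CPM untreated and 876.9, 857.5 and 509.7 CPM treated. It was thus higher in TGFβ1 replicates 1 and 2 and lower in replicate 3. For Cdh1, Krt8, Krt19, Perp and Rab25 the fall in replicate 3 was as deep as in the other treated libraries or nearly so, whereas Ppl and Itga6 lay between. Omission of TGFβ1 replicate 3 gave 3 and 1 rises and falls for adherens junctions, 3 and 9 for tight junctions, 0 and 4 for desmosomes, 1 and 4 for filaments and 0 and 5 for epithelial markers. Over the 6 fits with 1 library left out there were 0 to 3 rises and 1 fall for adherens junctions, 0 to 3 and 5 to 9 for tight junctions, 0 and 4 for desmosomes, 0 to 1 and 3 to 4 for filaments and 0 and 4 to 5 for epithelial markers. The calls of Perp, Ppl, Evpl, Itga6, Krt8, Lmna and Krt19, 7 of 8 given here, were made whichever library was left out.

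In the actin cytoskeleton 6 of 31 tested members rose and 2 fell (median 0.23). Acta2, smooth muscle actin, was low in untreated cells and measured 1.36, 1.57 and 1.22 CPM without TGFβ1 and 13.5, 8.80 and 1.80 CPM with it (log2 change 2.49 ± 0.63, adjusted p = 0.0286), so that replicate 3 was close to untreated. Tagln, another smooth muscle gene, stayed near the detection limit at 1.18, 0.553 and 1.60 CPM untreated and 1.62, 0.995 and 0.189 CPM treated (log2 change −0.26 ± 0.57, adjusted p = 0.821). Vasp, which elongates actin filaments, and Tln1, talin 1, which links integrins to actin, rose by log2 0.38 ± 0.08 and 0.67 ± 0.17. Zyx, zyxin, Pdlim7 and Myl12a, a myosin light chain, rose too, the last with fractional counts in all 12 libraries. Flnc, filamin C, fell by 1.19 ± 0.14 (adjusted p = 0.000344), and Myh14, a nonmuscle myosin heavy chain, was at 16.5, 10.4 and 11.2 CPM untreated and 1.73, 4.52 and 1.14 CPM treated (log2 change −2.34 ± 0.39, adjusted p = 0.003). Rhob, a small GTPase that acts on actin, measured 151, 146 and 145 CPM untreated and 489.7, 474 and 185 CPM treated (log2 change 1.37 ± 0.34, adjusted p = 0.0265), with replicate 3 far below the other treated libraries. Among 6 calls given here, those of Flnc and Myh14 were made in all 6 fits with 1 library left out.

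Integrins, the receptors for matrix, gave 6 rises and 1 fall among 13 tested subunits (median 0.45). Itgb3 was at 2.44, 2.12 and 1.92 CPM without TGFβ1 and 48.5, 46.99 and 11.3 CPM with it (log2 change 4.02 ± 0.62, adjusted p = 0.00183), and replicate 3 was the lowest of the treated. Itgb5 measured 186, 144 and 167 CPM untreated and 492, 568 and 259 CPM treated (log2 change 1.40 ± 0.25, adjusted p = 0.00495). Itga2, a subunit of a collagen receptor, rose by 1.22 ± 0.17 (adjusted p = 0.000702) and Itgb1, the β subunit most integrins share, by 0.35 ± 0.08 (adjusted p = 0.0217). Itga5 and Itgav, α subunits of fibronectin and vitronectin receptors, were the remaining rises, and Itga6 was the fall. Without TGFβ1 replicate 3 there were 13 and 2 rises and falls for actin genes and 6 and 1 for integrins. With each library left out in turn the ranges were 0 to 13 rises and 2 falls for actin genes and 3 to 6 and 1 for integrins. Of 4 called genes with values here, Itgb3, Itgb5 and Itga2 were called in each fit that left out 1 library.

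Matricellular and fibrillar glycoproteins had the highest share of rises, 11 of 19 tested, with 0 falls and a median of 0.93. Fn1, fibronectin, was at 574, 534 and 482 CPM without TGFβ1 and 1546, 2038 and 1406 CPM with it (log2 change 1.65 ± 0.13, adjusted p = 2.49e-05). Its counts were fractional in 10 of the 12 libraries, and the source of the fractions is not given in the sources used here. Tnc, tenascin C, a matrix protein of wounds and tumour stroma, measured 7.59, 7.19 and 6.70 CPM untreated and 330.2, 324 and 103 CPM treated (log2 change 5.13 ± 0.52, adjusted p = 0.00014). Ccn2, connective tissue growth factor and a SMAD and YAP target, was at 62.01, 85.2 and 95.7 CPM untreated and 594, 467 and 309 CPM treated (log2 change 2.49 ± 0.27, adjusted p = 0.000226). Spp1, osteopontin, measured 140.5, 157 and 172 CPM untreated and 676, 1202 and 925 CPM treated (log2 change 2.58 ± 0.24, adjusted p = 6.53e-05), and replicate 3 lay between the other treated libraries. Smoc1, a calcium-binding matrix protein, rose by log2 3.92 ± 0.68; Postn, Sparc, Thbs1, Ccn4, Fbln2 and Fbn1 made up the rest. Fibroblast and pericyte markers, summed over 12 genes, ranged from 36.3 to 50.9 CPM untreated and from 34.8 to 111 CPM treated, with 0 of 6 tested called; their part in the matrix result was not tested. Col1a1, a fibroblast collagen, overlapped at 13.7, 19.5 and 17.8 CPM untreated and 26.98, 53.6 and 11.6 CPM treated (log2 change 0.85 ± 0.46, adjusted p = 0.271). All 5 genes given here with a call were called in each fit that left out 1 library.

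Among collagens and laminins 6 of 24 tested members rose and 2 fell. Lamb1, laminin β1, was at 222, 209.9 and 222 CPM untreated and 343, 370.3 and 338 CPM treated (log2 change 0.68 ± 0.09, adjusted p = 0.00074), with all 3 treated libraries alike. Col7a1, the anchoring-fibril collagen, rose by 1.18 ± 0.25 (adjusted p = 0.0124) and Col27a1, a fibrillar collagen, by 3.16 ± 0.72 (adjusted p = 0.0176). Col12a1 and Lamb3 rose too. Col4a5, a basement membrane collagen, fell by 1.75 ± 0.21 (adjusted p = 0.000377) and Lama5, laminin α5, by 0.38 ± 0.10 (adjusted p = 0.0385). Enzymes that modify collagen gave 6 rises and 2 falls among 21. Loxl2, a lysyl oxidase that crosslinks collagen, was near 0 before treatment and measured 0.0904, 0.230 and 0.213 CPM untreated and 3.92, 2.94 and 0.473 CPM treated (log2 change 3.80 ± 0.86, adjusted p = 0.0169). Loxl3 rose by 1.46 ± 0.28, the lysyl hydroxylase Plod2 by 1.00 ± 0.25 and the collagen chaperone Serpinh1 by 0.50 ± 0.12. Tgm2, a transglutaminase, and Pcolce, an enhancer of procollagen cleavage, fell by log2 0.76 ± 0.18 and 0.69 ± 0.13. Leaving out TGFβ1 replicate 3 gave 11 and 0 rises and falls for matricellular genes, 9 and 2 for collagens and laminins, 7 and 2 for collagen enzymes and 2 and 0 for fibroblast markers. The fits that each left out 1 library gave 9 to 11 rises and 0 falls for matricellular genes, 1 to 9 and 1 to 2 for collagens and laminins, 1 to 7 and 1 to 3 for collagen enzymes and 0 to 2 and 0 for fibroblast markers. Among 11 calls given here, those of Lamb1, Col4a5, Loxl3 and Pcolce were made in all 6 fits with 1 library left out.

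Of matrix metalloproteinases (MMPs) and their inhibitors, 5 of 13 tested members rose and 0 fell (median 0.63). Promoter sequence is shown for Mmp10 and Mmp13, and for the cytokine gene Il1a below, because each was among the strong rises and holds a match to the AP-1 motif TGANTCA close to its start. They were chosen for that match: of the strong rises Tnc and Jag1, whose promoters were searched as well, neither holds TGANTCA in this window, and the promoter table had no entry for Mmp9, Ccn2, Fn1 or Itgb3. The sequences are the 250 bases before the RefSeq start on the gene's strand, 5′ to 3′, build GRCm38.p6, with motif matches in capitals: AP-1 in all 3, and in Mmp10 also the SMAD-binding letters CAGACA.
Mmp10, chr9:7502092-7502341, plus strand: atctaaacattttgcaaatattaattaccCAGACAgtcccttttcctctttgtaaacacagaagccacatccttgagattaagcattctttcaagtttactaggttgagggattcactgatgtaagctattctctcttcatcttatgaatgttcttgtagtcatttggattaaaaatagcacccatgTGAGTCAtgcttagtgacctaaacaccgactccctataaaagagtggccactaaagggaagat
Mmp13, chr9:7272264-7272513, plus strand: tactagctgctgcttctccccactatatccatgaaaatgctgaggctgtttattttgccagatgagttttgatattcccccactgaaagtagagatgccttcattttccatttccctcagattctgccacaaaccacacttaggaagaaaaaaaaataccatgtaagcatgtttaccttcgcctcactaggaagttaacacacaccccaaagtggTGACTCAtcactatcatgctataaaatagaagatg
Il1a, chr2:129309973-129310222, minus strand: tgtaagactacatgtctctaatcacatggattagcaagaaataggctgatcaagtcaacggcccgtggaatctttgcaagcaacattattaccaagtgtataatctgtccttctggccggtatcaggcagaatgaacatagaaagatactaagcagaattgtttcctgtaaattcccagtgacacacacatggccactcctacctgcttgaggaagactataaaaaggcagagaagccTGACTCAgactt
The AP-1 match spans bases −63 to −57 from the start in Mmp10, −35 to −29 in Mmp13 and −12 to −6 in Il1a, with −1 the last base before the start. Searched on both strands, TGANTCA occurred in 6.75% of all 32851 promoters in the table, in 4.68% of those of tested genes, in 8.56% of those of rising genes and in 6.39% of those of falling genes. CAGACA occurred in 13.4%, 15.9% and 12.5% of promoters of tested, rising and falling genes, and the E-box CACCTG bound by SNAIL and ZEB factors in 15.2%, 16.1% and 19.9%. The table matched 9134 of the tested genes by symbol, 590 of the rising and 293 of the falling. A match describes letters and is not evidence of binding.

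Mmp13, collagenase 3, was at 0.633, 1.29 and 2.02 CPM without TGFβ1 and 30.5, 38.4 and 30.5 CPM with it (log2 change 4.67 ± 0.32, adjusted p = 9.29e-06). Mmp10, stromelysin 2, measured 7.30, 10.6 and 12.98 CPM untreated and 81.05, 116 and 176 CPM treated (log2 change 3.60 ± 0.32, adjusted p = 6.53e-05). Replicate 3 was not set apart in either gene: it was level with replicate 1 for Mmp13 and the highest of the 6 libraries for Mmp10. Mmp9, gelatinase B, differed in that respect, at 24.1, 22.9 and 24.7 CPM untreated and 767, 961 and 227 CPM treated (log2 change 4.76 ± 0.54, adjusted p = 0.000267), with replicate 3 well above untreated but far below replicates 1 and 2. Mmp12, macrophage elastase, rose as well. Timp1, an inhibitor of MMPs, was at 72.9, 74.5 and 75.5 CPM untreated and 114, 107 and 115 CPM treated (log2 change 0.59 ± 0.10, adjusted p = 0.00432), with the treated libraries alike. Of ADAM and ADAMTS proteases 5 of 14 tested members rose and 2 fell. Adamts4, an aggrecanase, measured 6.87, 6.08 and 5.11 CPM untreated and 61.2, 74.03 and 14 CPM treated (log2 change 3.03 ± 0.64, adjusted p = 0.0119). Adam12 rose by 1.14 ± 0.22, Adamts6 by 1.42 ± 0.19 and Adamts7 by 1.24 ± 0.30, while Adam8 was at 42.1, 37.9 and 34.7 CPM untreated and 7.66, 10.5 and 13.7 CPM treated (log2 change −1.84 ± 0.18, adjusted p = 0.000114) and Adamts1 fell by 0.93 ± 0.25. Of 10 called genes with values here, Mmp13, Mmp10, Mmp9, Timp1, Adam12, Adamts6 and Adam8 were called in each fit that left out 1 library.

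In the plasminogen system, which activates proteases outside the cell, the activator urokinase and an inhibitor of it both rose. Plau, which encodes urokinase, measured 61.6, 57.9 and 63.96 CPM without TGFβ1 and 131, 124 and 146 CPM with it (log2 change 1.13 ± 0.11, adjusted p = 0.000127), highest in replicate 3. Serpine2, protease nexin 1, rose by 1.31 ± 0.29 (adjusted p = 0.0151). In the list 3 of 15 tested genes rose and 2 fell. Klk10, a kallikrein, measured 9.31, 9.49 and 12.8 CPM untreated and 0.324, 0.633 and 1.51 CPM treated (log2 change −3.63 ± 0.47, adjusted p = 0.000517), and the protease Htra1 fell by 0.51 ± 0.10. Omission of TGFβ1 replicate 3 gave 7 and 0 rises and falls for MMPs and TIMPs, 7 and 2 for ADAM proteases and 5 and 2 for the plasminogen system. Over the 6 fits with 1 library left out there were 5 to 7 rises and 0 falls for MMPs and TIMPs, 2 to 7 and 1 to 2 for ADAM proteases and 2 to 5 and 2 for the plasminogen system. The calls of Plau, Klk10 and Htra1, 3 of 4 given here, were made whichever library was left out.

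Interleukins and the IL1 family gave 6 rises and 0 falls among 15 tested genes (median 0.66). Il1a, interleukin 1α, whose promoter is printed above, was at 73.1, 126 and 122 CPM without TGFβ1 and 374, 465 and 639.7 CPM with it (log2 change 2.20 ± 0.24, adjusted p = 0.000226), and as for Mmp10 replicate 3 was the highest. Il1rap, the accessory chain of the IL1 receptors, measured 10.1, 11.4 and 9.37 CPM untreated and 24.2, 25.1 and 15.7 CPM treated (log2 change 1.06 ± 0.16, adjusted p = 0.00152). The receptor Il1r1 rose by 0.91 ± 0.22 and Il1rl1, the IL33 receptor ST2, by 2.17 ± 0.51, both with replicate 3 lowest of the treated. Il11 and Il23a were the other rises. Among chemokines and colony-stimulating factors 5 of 13 tested members rose and 1 fell. Cxcl5, which attracts neutrophils, was at 76.7, 129 and 97.3 CPM untreated and 8.53, 3.53 and 50.1 CPM treated (log2 change −2.28 ± 0.62, adjusted p = 0.0393), and replicate 3 lay nearer to untreated than to the other treated libraries. Csf3, granulocyte colony-stimulating factor, went the other way, at 40.3, 60.6 and 53.5 CPM untreated and 80.6, 75.2 and 128 CPM treated (log2 change 0.88 ± 0.19, adjusted p = 0.0147), highest in replicate 3. The membrane-bound chemokines Cxcl16 and Cx3cl1 rose by log2 0.79 ± 0.17 and 1.16 ± 0.29, and Ackr3, a scavenger receptor of CXCL12, measured 71.8, 69.6 and 80.1 CPM untreated and 113, 113 and 116 CPM treated (log2 change 0.63 ± 0.09, adjusted p = 0.00104). Among 9 calls given here, those of Il1a, Il1rap and Ackr3 were made in all 6 fits with 1 library left out.

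In the TNF superfamily 3 of 16 tested genes rose and 1 fell. Cd40, a costimulatory TNF receptor, was at 1.81, 1.84 and 2.23 CPM untreated and 46.6, 35 and 12.5 CPM treated (log2 change 3.99 ± 0.63, adjusted p = 0.002). Birc3, an inhibitor of apoptosis in NF-κB signalling, rose by 0.71 ± 0.19, Tnfrsf21, death receptor 6, by 0.50 ± 0.13, and Traf1, an adaptor, fell by 0.44 ± 0.12. Interferon-stimulated genes differed in sign between the treated libraries. With all libraries 0 of 33 rose and 3 fell, and their median change was 0.51, 0.98 and −0.51 in TGFβ1 replicates 1, 2 and 3, so that replicate 3 was below untreated where the other two were above. Without it the rises and falls were 14 and 0. The 3 falls with all libraries were Oas3, Oasl1 and Ifit2, antiviral effectors; Oasl1 measured 47.4, 36.6 and 34.5 CPM untreated and 23.1, 27.1 and 15.3 CPM treated (log2 change −0.86 ± 0.25, adjusted p = 0.0488), and none of the 3 passed without replicate 3 (adjusted p = 0.0569, 0.0761 and 0.0663). Immune checkpoint and MHC genes gave 1 rise and 1 fall among 21, or 4.76% each, near the 5.89% and 2.91% over all tested genes. Nt5e, CD73, which makes adenosine, was at 72.7, 60.7 and 65.02 CPM untreated and 160.3, 178 and 134 CPM treated (log2 change 1.25 ± 0.14, adjusted p = 0.000253), and Lgals3, galectin 3, measured 275, 268 and 304 CPM untreated and 64.4, 54.99 and 95.4 CPM treated (log2 change −1.98 ± 0.24, adjusted p = 0.000377). Without TGFβ1 replicate 3 there were 14 and 0 rises and falls for interferon genes, 8 and 2 for interleukins, 5 and 2 for chemokines, 3 and 1 for TNF genes and 10 and 1 for checkpoint and MHC genes. With each library left out in turn the ranges were 0 to 14 rises and 0 to 2 falls for interferon genes, 2 to 8 and 0 to 2 for interleukins, 2 to 5 and 0 to 2 for chemokines, 1 to 3 and 0 to 1 for TNF genes and 1 to 10 and 1 for checkpoint and MHC genes. Of 7 called genes with values here, Cd40, Nt5e and Lgals3 were called in each fit that left out 1 library.

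Growth factor genes rose more often than they fell. Of the VEGF, PDGF and FGF families with their feedback inhibitors 11 of 26 tested members rose and 2 fell (median 0.55). Vegfc, a lymphangiogenic factor, was at 10.4, 11.2 and 6.92 CPM without TGFβ1 and 44.5, 41.2 and 24.6 CPM with it (log2 change 1.94 ± 0.26, adjusted p = 0.000737). Pdgfc measured 20.3, 14.7 and 11.9 CPM untreated and 70.04, 67.9 and 31.3 CPM treated (log2 change 1.84 ± 0.32, adjusted p = 0.00399), and Vegfa, Pgf, Pdgfa and Pdgfb rose too. Spry1, a feedback inhibitor of receptor kinases, was at 25.4, 26.6 and 30.2 CPM untreated and 52.3, 53.4 and 51.7 CPM treated (log2 change 0.93 ± 0.11, adjusted p = 0.000367), and all 3 treated libraries agreed closely. Dusp4, a phosphatase of MAP kinases, rose by 1.01 ± 0.21, with Spry4, Spred1 and Dusp6. Fgfbp1, which releases FGFs from matrix, measured 52.6, 40.5 and 40.01 CPM untreated and 4.75, 5.52 and 12.7 CPM treated (log2 change −2.52 ± 0.43, adjusted p = 0.00325), and Nrp1, a VEGF and semaphorin co-receptor, fell by 0.90 ± 0.15 (adjusted p = 0.00325). The calls of Vegfc, Pdgfc, Spry1, Fgfbp1 and Nrp1, 5 of 6 given here, were made whichever library was left out.

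In the EGF family 4 of 11 tested genes rose and 2 fell. The ligand gene Hbegf was at 78.7, 92.5 and 110.2 CPM untreated and 163, 191 and 158 CPM treated (log2 change 0.86 ± 0.16, adjusted p = 0.00679). Errfi1, a feedback inhibitor of EGFR, rose by 0.81 ± 0.18 (adjusted p = 0.0157), and Areg, amphiregulin, by 0.90 ± 0.26 (adjusted p = 0.0466), both highest in replicate 3; Areg did not pass without that library (adjusted p = 0.1). Egfr, low in these cells, rose by 1.75 ± 0.50 (adjusted p = 0.0449). Erbb3 and the ligand gene Nrg2 fell by log2 0.70 ± 0.17 and 2.39 ± 0.51. Among HGF, IGF and TAM genes 3 of 14 rose and 1 fell. Igfbp7, a secreted binder of insulin-like growth factors, measured 94.7, 102 and 113 CPM untreated and 601, 650.5 and 430.5 CPM treated (log2 change 2.44 ± 0.17, adjusted p = 9.68e-06). Met, the HGF receptor, was at 50.99, 37.3 and 41.6 CPM untreated and 25.7, 24.6 and 33.4 CPM treated (log2 change −0.63 ± 0.14, adjusted p = 0.0158), and Igf1 and Igf1r rose by log2 1.89 ± 0.45 and 0.38 ± 0.10. Among 10 calls given here, those of Hbegf and Igfbp7 were made in all 6 fits with 1 library left out.

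Of the Notch pathway, which signals between touching cells, 7 of 16 tested members rose and 2 fell (median 0.48). Jag1, a Notch ligand, measured 28.3, 26.2 and 21.1 CPM without TGFβ1 and 199.7, 177 and 72.01 CPM with it (log2 change 2.56 ± 0.37, adjusted p = 0.00117). Hes1, a Notch target, rose by 1.03 ± 0.21 (adjusted p = 0.0107). The receptors split: Notch2 rose by 0.50 ± 0.13 (adjusted p = 0.0312) and Notch4 by 2.87 ± 0.72 (adjusted p = 0.028), and Notch1 fell by 0.77 ± 0.15 (adjusted p = 0.00693). Dlk2, a noncanonical ligand, was at 20.97, 31.1 and 36.1 CPM untreated and 3.13, 2.98 and 9.18 CPM treated (log2 change −2.52 ± 0.45, adjusted p = 0.00445). In the Wnt pathway 3 of 22 rose and 1 fell. Wnt11, a noncanonical ligand, rose by 2.77 ± 0.65, the Wnt receptor Fzd5 by 0.68 ± 0.16 and the nuclear factor Lef1 by 1.22 ± 0.32, whereas Ror1, a Wnt5a receptor, fell by 1.79 ± 0.34. Semaphorins, ephrins and guidance receptors gave 6 rises and 1 fall among 33. Unc5b, a netrin receptor, measured 112, 87.9 and 94.3 CPM untreated and 358, 359 and 208 CPM treated (log2 change 1.65 ± 0.22, adjusted p = 0.000669), and Efnb1, an ephrin, rose by 1.21 ± 0.17. Leaving out TGFβ1 replicate 3 gave 9 and 3 rises and falls for the VEGF group, 3 and 2 for the EGF family, 3 and 2 for the HGF group, 8 and 2 for Notch, 7 and 1 for Wnt and 11 and 3 for guidance genes. The fits that each left out 1 library gave 4 to 9 rises and 2 to 3 falls for the VEGF group, 1 to 3 and 0 to 2 for the EGF family, 1 to 3 and 0 to 2 for the HGF group, 1 to 8 and 2 for Notch, 0 to 7 and 1 for Wnt and 3 to 11 and 0 to 3 for guidance genes. Of 12 called genes with values here, Jag1, Notch1, Dlk2, Ror1, Unc5b and Efnb1 were called in each fit that left out 1 library.

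Glycolysis genes fell by small amounts: 11 of 27 tested hypoxia and glycolysis genes fell and 0 rose, with a median of −0.32. Eno1, enolase, was at 1025, 1027 and 966 CPM without TGFβ1 and 784, 785 and 812 CPM with it (log2 change −0.34 ± 0.06, adjusted p = 0.006). Ldha, lactate dehydrogenase, measured 799, 904 and 801 CPM untreated and 599, 548 and 628 CPM treated (log2 change −0.50 ± 0.11, adjusted p = 0.0123). Pgk1 and Pkm, which form ATP in glycolysis, fell by log2 0.43 ± 0.09 and 0.36 ± 0.08. These 4 genes had fractional counts in 11 or 12 of the 12 libraries. The list medians were −0.26, −0.37 and −0.32 in TGFβ1 replicates 1, 2 and 3, and here replicate 3 did not differ in size from the others. Car9, a hypoxia-induced carbonic anhydrase, was at 14.2, 10.9 and 12.98 CPM untreated and 6.69, 6.69 and 3.97 CPM treated (log2 change −1.14 ± 0.19, adjusted p = 0.00283), and Car13 22.2, 24.3 and 20.5 CPM untreated and 7.66, 8.68 and 8.42 CPM treated (log2 change −1.44 ± 0.13, adjusted p = 6.53e-05). Of acid-base genes 1 of 13 rose, the bicarbonate transporter Slc4a7 by 0.76 ± 0.15, and 2 fell. The calls of Eno1, Car9, Car13 and Slc4a7, 4 of 7 given here, were made whichever library was left out.

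Among nutrient transporters 3 of 19 tested members rose and 2 fell. The zinc importers Slc39a4 and Slc39a14 rose by 1.55 ± 0.19 (adjusted p = 0.000377) and 0.88 ± 0.11 (adjusted p = 0.000467), and Slc6a6, the taurine transporter, by 1.16 ± 0.30 (adjusted p = 0.0312). Slc7a5 and Slc7a1, which carry large neutral and cationic amino acids, fell by log2 0.53 ± 0.14 and 0.56 ± 0.16. Cholesterol and fatty acid synthesis gave 0 rises and 3 falls among 29 (median −0.22). Sqle, squalene epoxidase, measured 325, 265 and 248 CPM untreated and 189, 201 and 195 CPM treated (log2 change −0.52 ± 0.12, adjusted p = 0.0169), and Idi1 and Elovl1 fell by log2 0.63 ± 0.18 and 0.37 ± 0.10. In prostaglandin metabolism 3 of 10 rose and 0 fell. Ptgs1, cyclooxygenase 1, was at 7.87, 6.26 and 6.81 CPM untreated and 27.3, 28.04 and 10.4 CPM treated (log2 change 1.64 ± 0.37, adjusted p = 0.0173). Ptgs2, the inducible cyclooxygenase 2, measured 114, 177 and 162 CPM untreated and 267, 284 and 296 CPM treated (log2 change 0.90 ± 0.18, adjusted p = 0.00819), and the prostaglandin transporter Slco2a1 rose by 1.02 ± 0.28. Of sphingolipid and phospholipid enzymes 3 of 28 rose and 0 fell, with Sphk1, which makes sphingosine 1-phosphate, at 0.96 ± 0.18 (adjusted p = 0.00664). Omission of TGFβ1 replicate 3 gave 0 and 11 rises and falls for glycolysis, 4 and 4 for acid-base genes, 3 and 3 for transporters, 0 and 4 for cholesterol synthesis, 4 and 1 for prostaglandin genes and 4 and 2 for sphingolipid genes. Over the 6 fits with 1 library left out there were 0 to 1 rises and 1 to 11 falls for glycolysis, 1 to 4 and 2 to 4 for acid-base genes, 2 to 3 and 0 to 3 for transporters, 0 and 0 to 4 for cholesterol synthesis, 1 to 4 and 0 to 1 for prostaglandin genes and 1 to 4 and 0 to 2 for sphingolipid genes. Among 12 calls given here, those of Slc39a4, Slc39a14, Ptgs2 and Sphk1 were made in all 6 fits with 1 library left out.

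Many genes of the secretory pathway rose, most of them by small amounts. Of ER folding and COPII genes, which fold new secreted proteins and carry them to the Golgi, 16 of 29 tested members rose and 0 fell (median 0.29). Pdia6, a disulfide isomerase, was at 401, 365 and 357 CPM without TGFβ1 and 506, 556 and 512 CPM with it (log2 change 0.49 ± 0.07, adjusted p = 0.00168). Creb3l2, a transcription factor of secretory genes, measured 17.4, 14 and 13.2 CPM untreated and 70.4, 67.3 and 27.4 CPM treated (log2 change 1.88 ± 0.35, adjusted p = 0.00596). Manf, an ER stress-induced factor, and Sec61b, a subunit of the translocation channel, rose by log2 0.38 ± 0.07 and 0.40 ± 0.08, the latter with fractional counts in all 12 libraries. The chaperones Hspa5, Hyou1, Pdia3, Pdia4, Dnajb9 and Dnajc3, the regulators Xbp1 and Edem1 and the COPII coat genes Sec23a, Sec24a, Sec24d and Sec31a rose as well. The list medians were 0.32, 0.28 and 0.26 in TGFβ1 replicates 1, 2 and 3, although single members such as Creb3l2 were much less changed in replicate 3. Glycosyltransferases and heparan sulfate enzymes, which act further along the same route, gave 10 rises and 0 falls among 30. Has2, hyaluronan synthase 2, was at 35.3, 37.3 and 33.8 CPM untreated and 185, 222 and 98.98 CPM treated (log2 change 2.25 ± 0.28, adjusted p = 0.000379). Ext1, a heparan sulfate polymerase, measured 82.3, 77.6 and 82.8 CPM untreated and 244, 201 and 140.1 CPM treated (log2 change 1.27 ± 0.18, adjusted p = 0.0011). Gcnt2, a branching enzyme, rose by 1.70 ± 0.20 and the sialyltransferase St6gal1 by 1.32 ± 0.18. Without TGFβ1 replicate 3 there were 15 and 0 rises and falls for ER genes and 12 and 1 for glycosyltransferases. With each library left out in turn the ranges were 3 to 15 rises and 0 falls for ER genes and 8 to 12 and 0 to 1 for glycosyltransferases. Of 8 called genes with values here, Pdia6, Creb3l2, Manf, Has2, Ext1, Gcnt2 and St6gal1 were called in each fit that left out 1 library.

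Caveolae, S100 proteins and annexins fell more often than they rose, 8 against 2 of 22 tested. S100a4, a small calcium-binding protein often used as a mesenchymal marker, was at 136, 132 and 174 CPM without TGFβ1 and 28.4, 29.9 and 33.7 CPM with it (log2 change −2.27 ± 0.15, adjusted p = 9.29e-06). Its direction was thus opposite to that of Fn1, and the 3 treated libraries were alike. Cav1, caveolin 1, measured 28.2, 19.9 and 20.6 CPM untreated and 6.37, 7.05 and 7.48 CPM treated (log2 change −1.71 ± 0.19, adjusted p = 0.000239). Cavin2, which shapes caveolae, was at 49.99, 38.3 and 46.7 CPM untreated and 10.8, 10.8 and 13.2 CPM treated (log2 change −1.95 ± 0.18, adjusted p = 6.53e-05), and Anxa1, annexin A1, 697, 798 and 810 CPM untreated and 436, 392 and 402 CPM treated (log2 change −0.91 ± 0.09, adjusted p = 9.08e-05). Cav2, S100a3, S100a6 and S100a10 fell too, and Anxa5 and Anxa8 rose by log2 0.35 ± 0.09 and 1.55 ± 0.44. Anxa8 was the exception in ordering, at 21.97, 15.02 and 17.9 CPM untreated and 77.1, 64.8 and 19.3 CPM treated, where replicate 3 lay within the untreated range. Of ion channels and pumps 3 of 26 rose and 2 fell. Piezo2, a mechanosensitive channel, rose by 1.68 ± 0.34 (adjusted p = 0.0106), the nucleotide receptor P2ry6 by 2.04 ± 0.35 (adjusted p = 0.0039) and the chloride channel Ano1 by 0.85 ± 0.20 (adjusted p = 0.0206). Aqp5, a water channel, fell by 1.57 ± 0.35 (adjusted p = 0.0162) and Trpv4, a cation channel, by 0.42 ± 0.12 (adjusted p = 0.044). The calls of S100a4, Cav1, Cavin2, Anxa1 and P2ry6, 5 of 11 given here, were made whichever library was left out.

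The counts of cell cycle genes shifted with the library left out, as did those over all tested genes. Without TGFβ1 replicate 3 the falls over all tested genes went from 408 (2.91%) to 904 (6.31%). Of replication and mitosis genes 6 of 40 fell and 0 rose with all libraries, and 0 and 18 rose and fell without TGFβ1 replicate 3; the list medians were −0.34, −0.38 and −0.09 in TGFβ1 replicates 1, 2 and 3. Nusap1, a spindle protein, measured 76.3, 57.03 and 59.2 CPM untreated and 45.6, 42.1 and 39.3 CPM treated (log2 change −0.60 ± 0.11, adjusted p = 0.00459). Cdc20, an activator of the anaphase-promoting complex, was at 544, 486 and 444 CPM untreated and 353, 341 and 419.9 CPM treated (log2 change −0.40 ± 0.11, adjusted p = 0.0387), and Mcm5 and Anln fell by log2 0.42 ± 0.11 and 0.47 ± 0.13. Of CDK inhibitors and cyclins 1 of 26 rose and 1 fell, or 3.85% each, near the 5.89% and 2.91% over all tested genes. Cdkn1a, the inhibitor p21, measured 12.1, 13.3 and 14.9 CPM untreated and 28.7, 25.4 and 18.8 CPM treated (log2 change 0.85 ± 0.25, adjusted p = 0.0497), and Cdc25b, a phosphatase that activates CDKs, fell by 0.47 ± 0.12 (adjusted p = 0.0253). Cdkn2b, the inhibitor p15 known as a TGFβ target, was not tested, since it had counts in 1 of the 6 libraries. Apoptosis regulators gave 6 rises and 0 falls among 28, with Dapk2, a death-associated kinase, at 2.03 ± 0.41 (adjusted p = 0.00975) and the caspases Casp1, Casp6 and Casp8 and the caspase inhibitor Cflar also higher. Redox and metal genes gave 2 rises and 0 falls among 25 (8% and 0%, again near the shares over all tested genes), Osgin1 and Acod1. Mammary luminal and basal markers gave 1 rise and 0 falls among 10. The rise was Lcn2, lipocalin 2, at 24.4, 37.4 and 33.8 CPM untreated and 56.4, 66.4 and 128 CPM treated (log2 change 1.39 ± 0.26, adjusted p = 0.00669). Leaving out TGFβ1 replicate 3 gave 0 and 18 rises and falls for replication and mitosis, 3 and 9 for caveolae and S100 genes, 8 and 3 for channels, 1 and 6 for CDK genes, 8 and 1 for apoptosis genes, 5 and 3 for redox genes and 2 and 1 for mammary markers. The fits that each left out 1 library gave 0 rises and 1 to 18 falls for replication and mitosis, 0 to 3 and 6 to 9 for caveolae and S100 genes, 1 to 8 and 0 to 3 for channels, 0 to 1 and 0 to 6 for CDK genes, 1 to 8 and 0 to 1 for apoptosis genes, 0 to 5 and 0 to 3 for redox genes and 1 to 2 and 0 to 1 for mammary markers. Among 8 calls given here, those of Nusap1 and Lcn2 were made in all 6 fits with 1 library left out.

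**Figure D4:**
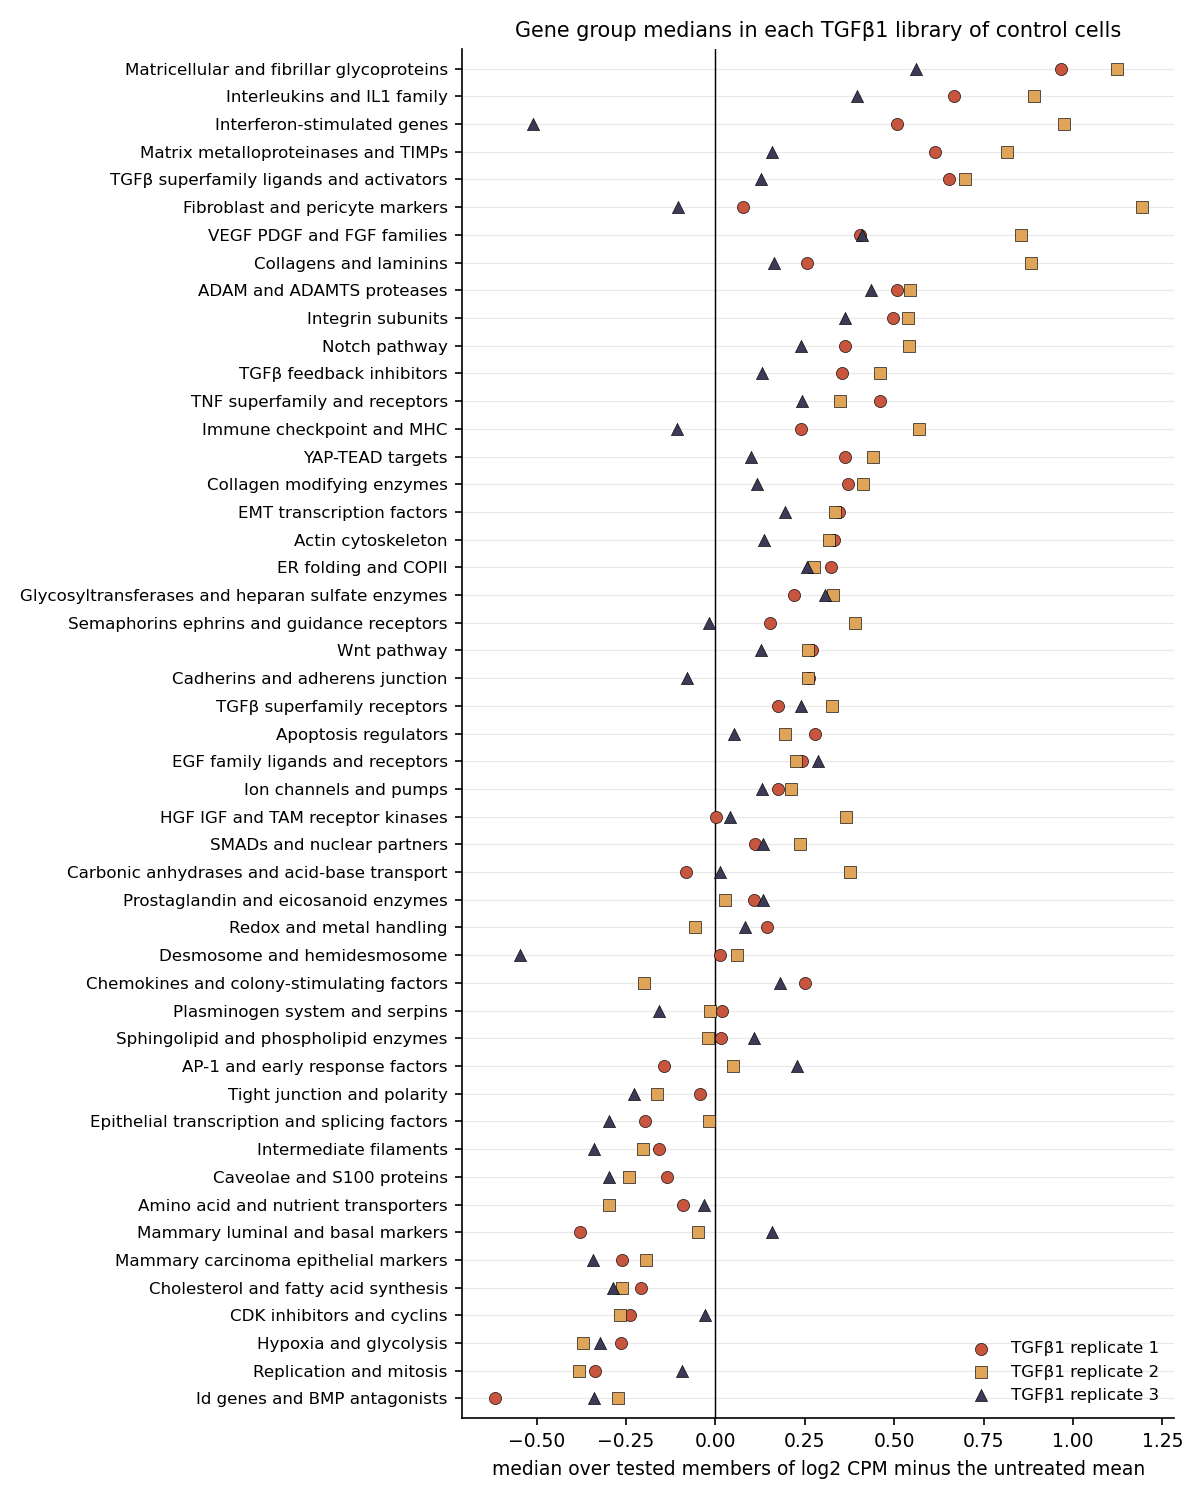
Median log2 change of the tested members of the gene groups described in each of the 3 treated libraries, measured from the mean of the untreated libraries. Replicate 3 (triangles) lies nearer to 0 for most rising groups, on the far side of 0 for interferon-stimulated genes at −0.51, and beside the other replicates for glycolysis and ER genes.

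Outside the groups, the 5 called genes of lowest p with at least 10 CPM were Akap12, Ctsw, Alcam, Gsto1 and Ivns1abp. Akap12, a scaffold for protein kinases A and C, was at 8.68, 10.04 and 8.62 CPM without TGFβ1 and 46.2, 47.03 and 39.98 CPM with it (log2 change 2.28 ± 0.19, adjusted p = 4.01e-05). Alcam, a cell adhesion molecule, measured 14.5, 15.3 and 13.7 CPM untreated and 33.7, 41.2 and 37.1 CPM treated (log2 change 1.36 ± 0.12, adjusted p = 4.22e-05), and Ctsw, a cysteine protease, 7.05, 7.09 and 9.37 CPM untreated and 46.1, 47.9 and 30.6 CPM treated (log2 change 2.40 ± 0.22, adjusted p = 6.53e-05). Gsto1, an omega-class glutathione transferase, rose by 1.72 ± 0.16 and Ivns1abp, a Kelch-repeat protein, by 0.96 ± 0.10. In these 5 genes replicate 3 lay far above every untreated library. All 5 genes given here with a call were called in each fit that left out 1 library.

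Among the 15 largest rises of called genes with at least 10 CPM in the higher group and no overlap between the groups, several rested mainly on TGFβ1 replicates 1 and 2. Prdm1, the repressor BLIMP1, was at 0.542, 0.276 and 0.213 CPM untreated and 28.98, 29.4 and 1.99 CPM treated (log2 change 5.78 ± 1.20, adjusted p = 0.0111). The protease gene Prss46 measured 0.633, 0.368 and 0.638 CPM untreated and 22.2, 22.7 and 1.70 CPM treated (log2 change 4.80 ± 1.11, adjusted p = 0.0195) and Ramp1, a partner of the calcitonin-like receptor, 1.18, 1.38 and 0.958 CPM untreated and 18.02, 20.4 and 2.84 CPM treated (log2 change 3.52 ± 0.71, adjusted p = 0.00915). In each, replicate 3 was much nearer to the untreated libraries than to the other treated ones. Hsd11b2, which inactivates glucocorticoids, was at 2.08, 1.38 and 1.70 CPM untreated and 48.7, 59.1 and 20.2 CPM treated (log2 change 4.62 ± 0.57, adjusted p = 0.000386), with replicate 3 closer to the rest. Mab21l4, Dmp1 and Ncald were also among these rises, at log2 3.74 ± 0.89, 3.39 ± 0.75 and 3.25 ± 0.56. The calls of Ramp1, Hsd11b2 and Ncald, 3 of 7 given here, were made whichever library was left out.

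Among the 15 largest falls by the same rule Padi1, a peptidylarginine deiminase, measured 27.2, 23.5 and 32.5 CPM without TGFβ1 and 4.21, 4.70 and 8.33 CPM with it (log2 change −2.26 ± 0.37, adjusted p = 0.00281). Msln, mesothelin, was at 128, 119 and 134 CPM untreated and 31.2, 47.9 and 56.8 CPM treated (log2 change −1.49 ± 0.19, adjusted p = 0.000537). Chchd10, a mitochondrial protein, fell by 1.66 ± 0.20 (adjusted p = 0.000385) and Bdnf, a neurotrophin, by 1.53 ± 0.35 (adjusted p = 0.0174). For Padi1 and Msln, too, replicate 3 was the highest of the treated libraries, but below the untreated ones, as the rule requires. Among 4 calls given here, those of Padi1, Msln and Chchd10 were made in all 6 fits with 1 library left out.

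**Figure D5:**
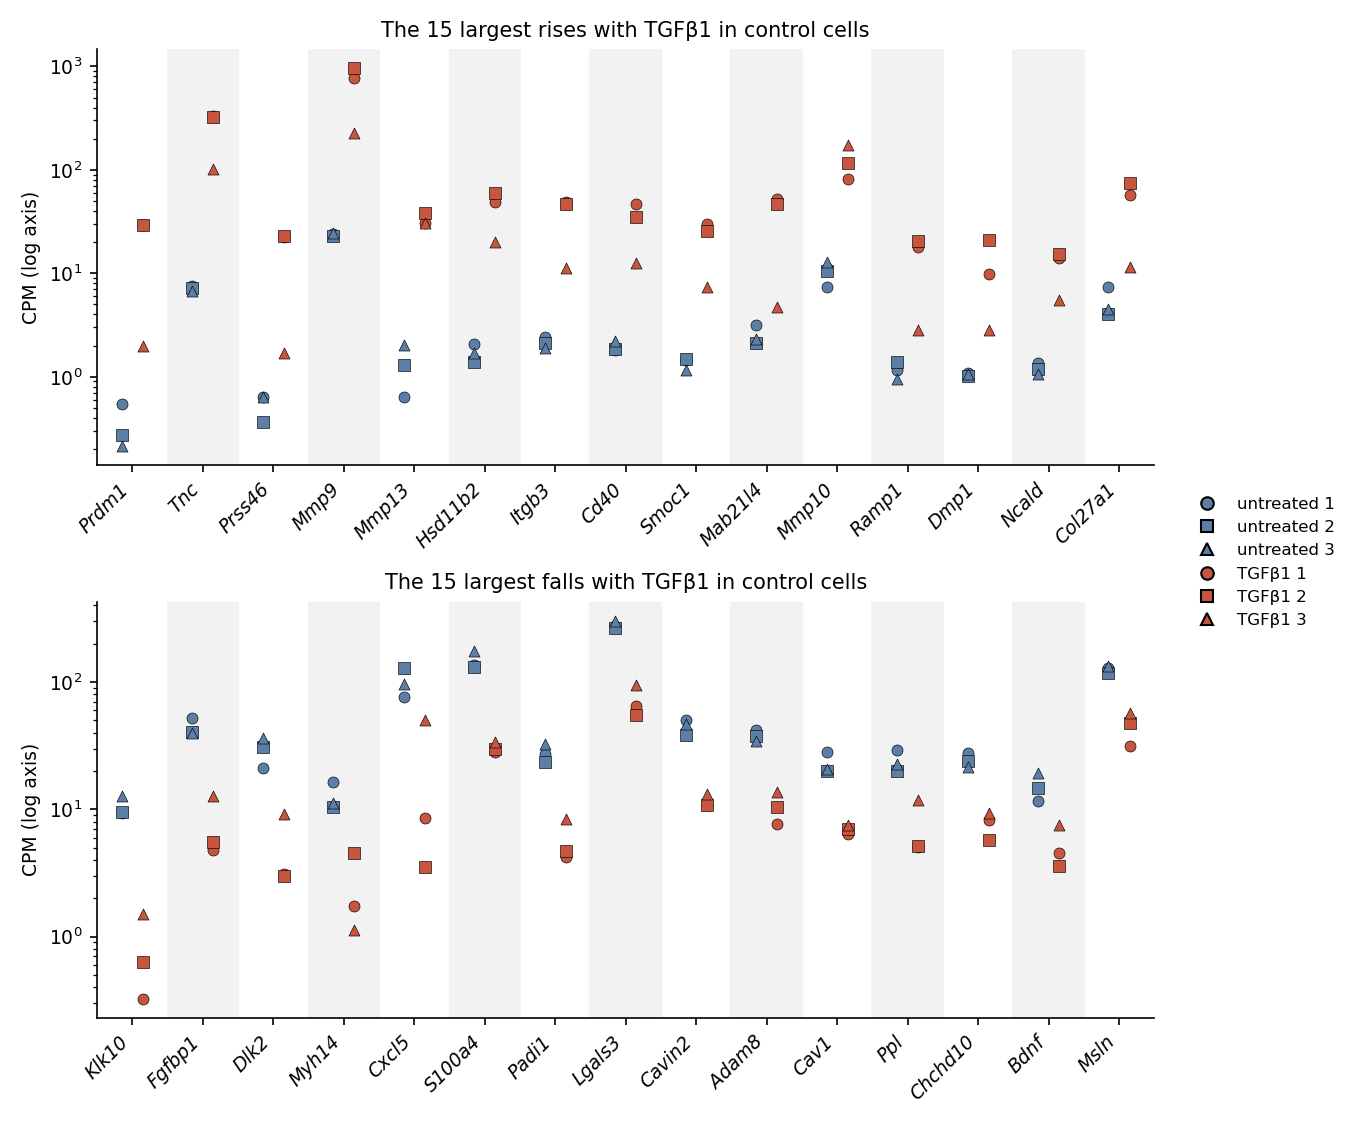
CPM on a log axis, in each library, of the 15 largest rises (top) and 15 largest falls (bottom) among called genes with at least 10 CPM in the higher group and no overlap between the groups, untreated in blue and TGFβ1 in red, with circles, squares and triangles for replicates 1, 2 and 3. The red triangles of replicate 3 sit below the other red points for Prdm1, Tnc and Mmp9 but level with them for Mmp13.

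The same treatment was applied to PBRM1 KO cells, and the response of control cells was compared with theirs. Pbrm1, which encodes a subunit of the PBAF chromatin remodelling complex, measured 328, 261 and 258 CPM untreated and 289.5, 292 and 276 CPM treated in control cells (log2 change 0.02 ± 0.10, adjusted p = 0.941). In the libraries labelled PBRM1 KO it measured 245, 207 and 222 CPM untreated and 274, 233 and 222 CPM treated, below every control library of the same treatment but close to them. Where the gene was edited is not given in the sources used here, so counts of its 3′ end do not check the label. In PBRM1 KO cells 1593 genes were called (11.4% of those tested). Of the 1234 control calls 900 were called there with the same sign, which is 72.9% of the control calls and 56.5% of the PBRM1 KO calls. Over the 14012 tested genes the log2 changes correlated with r = 0.855, a value across genes, which are not independent replicates; the comparisons share no library. The difference of the responses, tested directly as an interaction, gave 0 genes (0%) at an adjusted p below 0.05 by edgeR's quasi-likelihood test. The smallest adjusted p was 0.9996, and DESeq2 gave 0 genes too. By the edgeR test 247 of the 14012 tested genes had an unadjusted p below 0.05. That is a smaller share than the 0.05 that would pass on average if no gene differed. Of the 5 genes chosen by rule for the lowest unadjusted p, Il1a rose by 2.20 ± 0.24 in control and 3.72 ± 0.28 in PBRM1 KO cells, a difference, control minus PBRM1 KO, of −1.52 ± 0.36. Its mean level was 107 CPM untreated and 493 CPM treated in control cells, against 6.80 and 90.5 CPM in PBRM1 KO cells. The larger log2 change in PBRM1 KO cells thus started from a lower level, and their treated mean stayed below the untreated control mean. For Id1 the change was −0.14 ± 0.16 in the control libraries and −1.11 ± 0.16 in those labelled PBRM1 KO, a difference of 0.97 ± 0.22. For Dynap and Ssbp2 the differences were −0.66 ± 0.17 and 0.74 ± 0.20. None of the 5 passed after adjustment over all genes. With no filter on low counts 18 genes passed, Il1a among them, but also Gm6392 and Eef1a1-ps2 at differences of 7.88 and 8.21. There the Il1a difference was −1.51 ± 0.17, nearly the same size with a smaller standard error. Why the standard error was smaller was not tested, and the 18 were not taken as a genotype difference.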

How the data were processed

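Polyadenylated RNA was read by 3′ end counting with unique molecular identifiers, stranded and single-end, per the labels' protocols. The build was mm39 and the tools were STAR 2.7.11 with fastp 0.24.0, the featureCounts counter of Subread 2.1.1, and edgeR 3.38.4, per the submitters' processing notes. The authors deposited a table of estimated counts per gene (unnormalized, 72.5% of the values above 0 whole as written, with a tolerance of 0) and of CPM, the count per 1000000 counts of a library; recomputed CPM differed from theirs by at most 4.85e-06. The 92 transgene rows held 0 counts and were left out, which left 78317 genes.

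Estimated counts were rounded and fitted with edgeR 4.0.16 in R 4.3.3 over all 12 libraries with 1 mean per group, after filterByExpr and TMM scaling, by the quasi-likelihood F test with Benjamini-Hochberg adjustment over 14012 genes; the threshold was 0.05. The biological coefficient of variation was 12.5%. Standard errors are the log2 change divided by the square root of F. The fit was also tried on data simulated from the gene means and spread of these libraries. In the simulation no treated library responded only in part, as TGFβ1 replicate 3 did here. The labels state 3 biological replicates without saying that they came from separate cultures, so p-values measure the spread between these libraries.

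The comparison, the 52 lists and the named genes were chosen with earlier results of these data known. Named by rule were the 15 largest rises and falls of at least 10 CPM with no overlap of groups, up to 4 called members per list and direction (the 2 of lowest p where none passed), a fixed panel, the 5 lowest p for the genotype difference, and the 5 lowest p outside all lists; further called list members are given by name only, chosen after their values were seen. Some genes named by the rule and 1 of the lists are not reported here. Alternatives were DESeq2 1.42.0 (Wald test), its size factors, no filter, a replicate block, unrounded counts, the 6 control-cell libraries alone, a 2-fold minimum and libraries left out. Promoters come from a RefSeq table (GRCm38.p6) matched by symbol, since the files use another build.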

Additional observations from a re-analysis of the deposited data

How the results depend on the processing

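Against 826 rises and 408 falls, no filter on low counts gave 1404 and 711, leaving out both TGFβ1 replicate 3 libraries (control and PBRM1 KO) gave 1988 and 1426, and a 2-fold minimum gave 342 and 124. Leaving out 1 of the 6 control-cell libraries gave 262 to 1496 rises and 146 to 904 falls, with the highest counts without TGFβ1 replicate 3. DESeq2 gave 913 and 491, its size factors 806 and 421, unrounded counts 829 and 405, and the 6 libraries alone 640 and 293. The genotype difference had 0 genes except with no filter, where 18 passed, Il1a among them. The Il1a difference was nearly the same there, with a standard error of 0.17 against 0.36 with the filter. The 18 were not taken as a genotype difference. Among the 232 named genes 210 were called; 88, 100 and 10 of the calls were lost without TGFβ1 replicates 1, 2 and 3 and 76, 90 and 91 without untreated replicates 1, 2 and 3, and no called named gene changed direction under these alternatives. The 10 were Areg, Atf3, Idi1, Ifit2, Igf1r, Oas3, Oasl1, Osgin1, Tnfrsf21 and Trpv4. The cause of these differences was not tested.

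With the replicate block 1507 genes rose and 890 fell. Same-numbered treated and untreated control libraries correlated in their deviations with r = 0.244, −0.0698 and 0.131, and only replicate 1 of the treated libraries matched its own number best. The labels state no block and not every pair correlated above 0.1, so the numbers were not taken as pairs. Deviations of the treated libraries were taken from a mean that includes TGFβ1 replicate 3, which stood apart. These correlations therefore do not settle whether same-numbered libraries are pairs. With 3 libraries a group, of which 1 treated library differs from the others, a gene without a call is not shown to be unchanged. Genes with few counts, such as Snai2, Cdh2 and Cdkn2b, could not be resolved at this depth.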
